A study of Mus musculus with 6 samples.

Results

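Genes that move calcium into, within and out of the cell, and genes that read the calcium signal, were followed through the authors' list of differentially methylated regions in individual mouse embryos of embryonic day 4.5, at the late blastocyst stage. The members were picked by gene name, with earlier results of these data known: subunits of voltage-gated calcium channels (Cacna, Cacnb, Cacng), release channels of the internal stores (Ryr, Itpr), calcium pumps (Atp2a, Atp2b), calmodulin (Calm), the CaM kinases with their partners (Camk) and the hippocalcin family of calcium sensors (Hpca). They account for 133 of 18732 annotation entries and for 84 of 9707 distinct regions, of which 6 are CG, 30 CHG and 48 CHH regions (H is any base except G). These regions lie in 38 of the 59 genes of the group that RefSeq lists as protein-coding, and each of the 84 is listed for 1 member gene.

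The 6 embryos grew from fertilised C57BL/6 eggs that had been injected with sperm small RNA at 2 ng/µl, and each was taken at about 108 h for bisulfite sequencing of its whole genome. In 3 embryos the RNA came from normal mice (the normal group, replicates 1, 2 and 4) and in 3 from stress-induced depressed mice (the depressed group, replicates 1, 3 and 4). Both groups were thus injected, and uninjected embryos are not analysed here. Per region the authors' deposited table has 1 mean level for each group and 0 columns of values per embryo, so the read depth is unknown and no level has an error or a test of its own. No difference could be set against the spread between embryos, and all counts and levels below describe the authors' list and the authors' means.

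Voltage-gated channels open when the membrane depolarises: the pore subunit passes calcium, the beta subunit inside the cell and the alpha2delta subunit outside it bring the pore to the membrane and tune it, and gamma subunits act on channels or, in several cases, on AMPA receptors. Ryanodine and IP3 receptors release calcium from the endoplasmic reticulum, and the Atp2a and Atp2b pumps return it to that store or export it. Calmodulin binds the ion and switches on the CaM kinases, whose alpha and beta forms of type II are best known from synaptic plasticity in the brain. In mammals most methylated cytosines precede a guanine (CG), while methylation in CHG and CHH contexts is usually sparse. Whether the high CHG and CHH levels of the normal group printed below are true methylation was not tested.

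RefSeq promoter windows, from 250 bases before to 50 bases from a transcript start on, were at hand for 43 of the 59 genes, with 58 windows in all. None of the 84 regions overlapped any of these 58 windows by 1 bp or more, although the authors' table lists a promoter of the gene itself for 4 regions, in Cacna2d2 (CHG), Cacna2d4 (CHG and CHH) and Atp2b4 (CHH). With windows of any gene, 2 of the 84 regions overlapped one, and 67 of all 9707 listed regions (0.690%) did. The count for the 58 windows of the group has no like count over all genes beside it. Starts of genes without a window were not covered by these counts. The CHG region at the 5′ UTR of Camk2n1 overlapped no window at hand, with its midpoint 0.005 kb from an end of the gene span. A window for a start at that end would overlap this region of 245 bp, so none was at hand. Its lack of overlap thus does not place it away from a start. The only overlaps of the group with a window of any gene lay in an intron of Cacna2d4 on chromosome 6. There the gene Lrtm2 lies within the Cacna2d4 span and starts on the minus strand. A CHH region (chromosome 6, 119329117 to 119329334) overlapped an Lrtm2 window by 180 bp, and a CHG region (119329123 to 119329179) overlapped it by 25 bp. At the CHH region the mean was 7.65% with RNA of normal mice and 0.288% with RNA of depressed mice, and at the CHG region it was 13.3% and 0.0643%. These are the only member regions that touch a start window at hand. The part of the Lrtm2 window before the start that the CHH region covers is therefore shown here. It is from RefSeq GRCm38.p6, chr6:119329205-119329334, minus strand, 5′ to 3′, with the cytosines in CHH context on the printed strand in capitals.

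Lrtm2 start, upstream part: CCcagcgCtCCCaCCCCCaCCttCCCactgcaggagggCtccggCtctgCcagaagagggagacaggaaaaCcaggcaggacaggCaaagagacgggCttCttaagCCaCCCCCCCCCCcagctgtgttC

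These 130 bases hold 36 CHH cytosines on the printed strand and 18 on the other, with 12 and 13 CHG cytosines and 3 CG sites. The authors counted 52 CHH cytosines in the whole region of 218 bp, fewer than the 54 that both strands of this stretch alone contain. The number of cytosines in the table thus does not cover every CHH position on both strands.

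In the CG and CHG contexts, nearly all regions of the group were lower in the depressed group, and in CHH both directions were common. All 6 CG regions were lower (98.5% of all CG regions in the table were), and so were 26 of the 30 CHG regions (86.7%, exact 95% interval for the share of higher regions 3.76 to 30.7%, against 91.0% lower over all CHG regions). Of the 48 CHH regions 20 were lower (41.7%) and 28 were higher (58.3%, interval 43.2 to 72.4%), whereas over all CHH regions 20.4% were lower. That 20.4% includes regions outside genes, which a choice by gene name cannot pick. Counted as pairs of a protein-coding gene and a CHH region, 1334 were lower and 2764 higher. The majority in the group turned with the size of the difference: 23.8% of the 21 CHH regions with at least 10 points and 14.3% of the 14 with at least 20 points were higher. The intervals are exact binomial intervals over regions. Of the 38 genes, 19 had lower regions only, 13 had higher regions only, and 6 (Atp2b2, Cacna1c, Cacna1d, Cacna1g, Cacna2d2 and Camkk2) had both.

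Most higher CHH regions lay in channel genes, and most lower CHG regions in genes of pumps and signal readers. The 32 genes for channel subunits and release channels carried 25 of the 28 higher CHH regions, spread over 14 genes, with 3 lower CHG and 6 lower CHH regions. The 27 genes for pumps, calmodulin, kinases and sensors carried 23 of 26 lower CHG and 14 of 20 lower CHH regions, with 3 higher CHH regions. Channel genes are longer, with a median span of 118.9 kb against 48.7 kb and a total span of 6.996 Mb against 2.498 Mb. The longer class thus had more of the higher CHH regions but fewer of the lower CHG regions (3 against 23). A higher CHH region was listed for 14 of 32 channel genes and 3 of the 27 others, against 8.85% of all protein-coding genes. A lower CHG region was listed for 3 and 15 of them, against 6.24%. The part of gene length was not tested, and no test of this division was made.

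**Figure D1:**
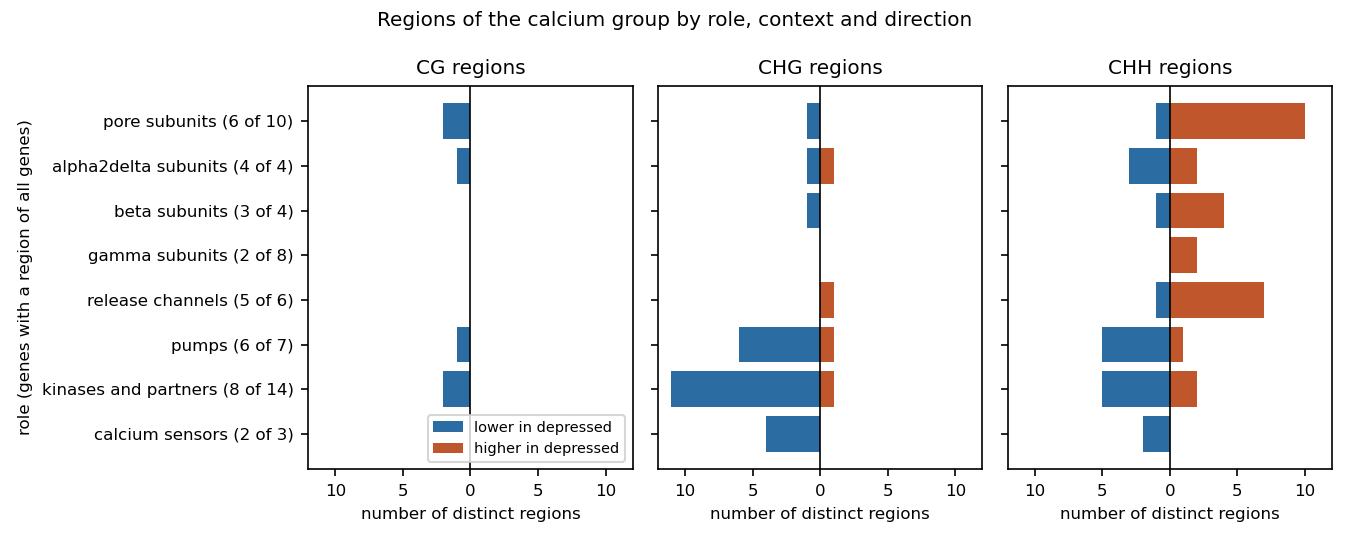
Number of distinct regions (x axis) lower in the depressed group (bars to the left) or higher (bars to the right) in CG, CHG and CHH context, by role except calmodulin, with the number of genes that have a region out of all genes of that role. Pore subunits and release channels have 10 and 7 higher CHH regions, while kinases with their partners have 11 lower CHG regions.

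The share of genes with a region was large in every context, in a group whose genes are long. A CG region was listed for 5 of 59 genes (8.47%, against 2.55% of 21896 protein-coding genes), a CHG region for 20 (33.9% against 6.91%) and a CHH region for 31 (52.5% against 13.2%). The median span was 67.0 kb in the group and 17.1 kb over all protein-coding genes. Per Mb of gene span, the group had 0.632 lower CG regions against 0.635 over all protein-coding genes, and 2.95 higher CHH regions against 2.63. Lower CHG regions came to 2.74 per Mb against 1.62, and lower CHH regions to 2.11 against 1.27. Higher CHG regions, of which the group had 4, came to 0.421 per Mb against 0.157. For lower CG and for higher CHH regions the density per Mb was thus close to that of all genes. For lower CHH regions and for CHG regions of both directions it was above it.

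Among pore subunits, 6 of 10 genes had a region and higher CHH regions in introns prevailed. Over all protein-coding genes, 17.5% had a region of any context. The counts of genes per role, here and below, were not adjusted for gene length. Cacna1a, the pore of P/Q-type channels at nerve terminals, had 3 of them on chromosome 8. In the strongest (84471996 to 84472114) the mean was 1.96% with RNA of normal mice and 24.9% with RNA of depressed mice, a difference of 22.9 percentage points, the widest among higher CHH regions of the group. The other two stood at 0.940% and 4.57%, and at 1.46% and 4.25%, in the same order. Cacna1e, the R-type pore, also had 3 intronic regions on chromosome 1, with normal means of 0.188, 3.45 and 4.71% and depressed means of 3.30, 7.94 and 16.3%. The single wide differences in Cacna1a and Cacna1e thus stood beside others of under 5 points in the same gene.

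Cacna1c, the L-type pore of heart and brain, differed within itself. A pair of introns were higher, with 0.260% against 3.19% and 1.03% against 4.52% (normal before depressed), the latter within an RLTR31D_MM repeat. The remaining intronic CHH region (chromosome 6, 119120585 to 119121019), in an RMER12C retroviral repeat, was lower, at 68.5% in normal and 52.5% in depressed embryos. It was the only member region of CHG or CHH context above 50% in the depressed group. Cacna1d, another L-type pore, had a lower CHG region in its 3′ UTR (23.7% against 0.117%) and a higher intronic CHH region (1.35% against 4.79%). Cacna1g, a T-type pore, had a higher intronic CHH region (1.13% against 4.79%) and a lower CG region. Cacna1b, Cacna1f, Cacna1h and Cacna1i had no listed region.

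All 4 alpha2delta genes had regions. Cacna2d2 had 3 regions on chromosome 9 with differing directions close together. Its CHG region at 107526629 to 107526730, in an exon and a CpG island, was higher in depressed embryos (0.146% in normal, 33.1% in depressed). The CHH region in its 3′ UTR at 107527374 to 107527543 was lower, with 30.3% in normal and 0.598% in depressed embryos. Cacna2d1 had a pair of higher intronic CHH regions (1.37% against 4.76%, and 1.003% against 6.59%). Cacna2d3, the longest gene of the group at 817.8 kb, had a single region, a lower CHH region in an intron (13.6% against 2.74%).

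Beta subunits had regions in 3 of 4 genes. Cacnb2 had 2 and Cacnb4 2 higher CHH regions, all in introns, with normal means of 0.294 to 0.571% and depressed means of 3.63 to 5.68%. Cacnb3 had lower regions in its 3′ UTR in both contexts on chromosome 15, a CHG region at 98643784 to 98643890 (31.8% against 0.0828%) and a CHH region at 98643779 to 98645863 (17.3% against 0.657%). The CHH region runs on into the neighbouring gene Ddx23 and is listed for it too. Of 8 gamma subunit genes, Cacng3 (0.862% against 3.17%) and Cacng5 (4.11% against 15.2%, 253 counted cytosines on chromosome 11) had a higher intronic CHH region each, and both encode proteins that associate with AMPA receptors.

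Release channels, most of them long genes, had regions in 5 of 6 genes. Ryr1, the form of skeletal muscle, had no listed region. Ryr2, the release channel of heart muscle that is also present in neurons, had 2 higher CHH regions in introns on chromosome 13, close to each other, one at 11808673 to 11808838 (0.549% against 2.68%) and the other at 11809705 to 11809889 (0.827% against 4.05%). They lie in RMER17C and RMER17C2 repeats. Ryr3 had 2 (0.297% against 3.01%, and 1.004% against 5.29%) and Itpr2 had 2 (0.668% against 6.45%, and 2.20% against 6.73%). Itpr3 had a narrow CHH difference in an intron (0.814% against 3.59%) and a wide CHG difference in an exon (chromosome 17, 27116655 to 27116767; 0.126% against 35.9%), both higher. Itpr1, the main IP3 receptor of the brain, had a single region, a lower CHH region in an L1 repeat (8.73% against 0.585%).

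Among the pumps, the largest differences of the whole group lay in Atp2a2, which encodes the pump of the endoplasmic reticulum used in most tissues. In its 3′ UTR on chromosome 5, the CHG region at 122453856 to 122453971 had 81.8% in normal and 0.0879% in depressed embryos, and the CHH region around it (122453824 to 122453981) had 81.7% and 0.654%. At higher coordinates, another CHG region across the 3′ UTR and an intron (122456246 to 122457007) had 67.3% and 8.32% and its CHH counterpart (122455969 to 122457272) 55.7% and 5.54%. Thus all 4 Atp2a2 regions were lower in the depressed group, with normal levels above 50%. Atp2a3 had a lower CHG region in its 3′ UTR (25.9% against 0.504%).

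The plasma membrane pump Atp2b2, prominent in neurons and in hair cells of the inner ear, had 5 regions on chromosome 6. At its 5′ UTR (CHH region 113842199 to 113842439) the CHG and CHH means were equal to 3 digits in normal embryos, 36.1%, and were 0.169% and 0.496% in depressed embryos. In its 3′ UTR they were 56.4% and 50.8% in normal embryos against 0.0957% and 0.594%. The fifth, a CHG region in an intron (113762979 to 113763045), had the opposite direction, with 0.118% in normal and 37.9% in depressed embryos. Atp2b4 had lower regions of both contexts in its 3′ UTR (22.5% against 0.127% in CHG, 9.12% against 0.692% in CHH). Atp2b3, the pump gene on chromosome X, had a higher CHH region across an exon and an intron (2.90% against 21.6%), and the labels do not state the sex of the embryos.

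Calmodulin genes encode the small sensor that passes the calcium signal on to the kinases. Calm2 on chromosome 17 was lower in the depressed group in its 3′ UTR. Its CHG region of 4 counted cytosines (87433565 to 87433648) had 42.9% in normal and 0.103% in depressed embryos, and a CHH region that is also listed at the transcript end (87433405 to 87433644) had 29.1% and 1.11%.

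The kinases were led by Camk2a, the alpha subunit of neuronal CaM kinase II, with 6 regions, the most of any gene in the group. They form 3 places on chromosome 18, each with a CHG and a CHH region, all lower in depressed embryos. In the distal part of the 3′ UTR (CHH region 60985518 to 60986050) the CHG and CHH means were 42.8% and 43.1% in normal embryos and 0.0697% and 0.369% in depressed embryos. In the proximal part (60984794 to 60985349) they were 13.99% and 15.7% in normal embryos, and in an intron, where the CHH region is listed in an MTB repeat, 26.0% and 25.4%. Depressed means at the latter 2 places lay between 0.434 and 1.84%.

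The other subunits of CaM kinase II were listed as well. Camk2b had lower CHG regions in its 3′ UTR (50.4% against 0.0935%) and in an intron (16.8% against 1.20%), and Camk2d had 1 in its 3′ UTR (45.2% against 0.142%). Camk2g differed from them, with no CHG region and a higher CHH region across an exon and an intron (chromosome 14, 20737371 to 20737551; 0.235% against 22.1%). Camk2n1, which encodes an inhibitor of CaM kinase II, had a lower CHG region at its 5′ UTR within a CpG island (chromosome 4, 138455031 to 138455275; 25.2% against 1.75%).

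Camkk2, the kinase that activates other CaM kinases and the energy sensor AMPK, had opposite directions at 2 places on chromosome 5. Its 3′ UTR was lower in CHG (19.8% against 1.27%) and CHH (122731243 to 122733963; 26.9% against 0.512%). A place across an exon and an intron was higher in CHG (122742226 to 122742335; 0.798% against 14.4%) and CHH (0.184% against 8.73%). Camkv, a kinase-like protein of vesicles without known kinase activity, had lower CHG regions in an exon (37.4% against 0.730%) and in the 3′ UTR (18.0% against 1.40%). Camk1d had 4 lower regions in all 3 contexts, with the CHG region in the 3′ UTR (24.5% against 0.0829%) and a narrow CHH difference in an intron (4.39% against 1.46%). Camk1, Camk1g, Camk2n2, Camk4, Camkk1 and Camkmt had none.

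Of the neuronal calcium sensors, Hpcal4 had 4 regions in its 3′ UTR on chromosome 4. Its CHH region (123192521 to 123194436, 173 counted cytosines) had 52.5% in normal and 0.708% in depressed embryos. It ranked 2 among the 1415 lower CHH regions by the absolute size of the authors' statistic. Inside it the CHG level of normal embryos was uneven along the gene, with 24.0% over the first 92 bp region, 66.8% over the next of 226 bp and 76.1% over the last of 856 bp, while depressed embryos had 0.519, 0.216 and 0.668%. Hpca, the hippocalcin gene, kept more methylation in the depressed group than any other lower CHG region of the group, with 20.2% against 71.1% in CHG and 30.8% against 77.2% in CHH over the same exon. Hpcal1 had no listed region.

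The 6 CG regions were all lower in depressed embryos, with normal means of 53.3 to 78.1% and depressed means of 1.46 to 12.5%. Camk1d had 2 on chromosome 2, in the 3′ UTR (5298185 to 5298330; 72.8% against 7.06%) and in an intron (5413729 to 5413871; 70.7% against 4.97%). Atp2b1, a plasma membrane pump expressed in most tissues, had an intronic region of 51 bp on chromosome 10 (98972974 to 98973024; 65.9% against 1.46%). Regions of the channel genes Cacna1s, the pore of skeletal muscle (chromosome 1, 136084287 to 136084413; exon), of Cacna2d2 (chromosome 9, 107497472 to 107497541; exon and intron) and of Cacna1g (chromosome 11, 94466543 to 94466604; intron, in a MIRc repeat) had differences of 56.1, 65.6 and 48.6 points. These regions hold 4 to 9 counted CpGs each. None of the 6 lay in a promoter, a 5′ UTR or a CpG island, where 13.1%, 2.95% and 3.18% of all 880 CG regions lay. With 6 regions, a count of 0 does not set the group apart from these shares.

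**Figure D2:**
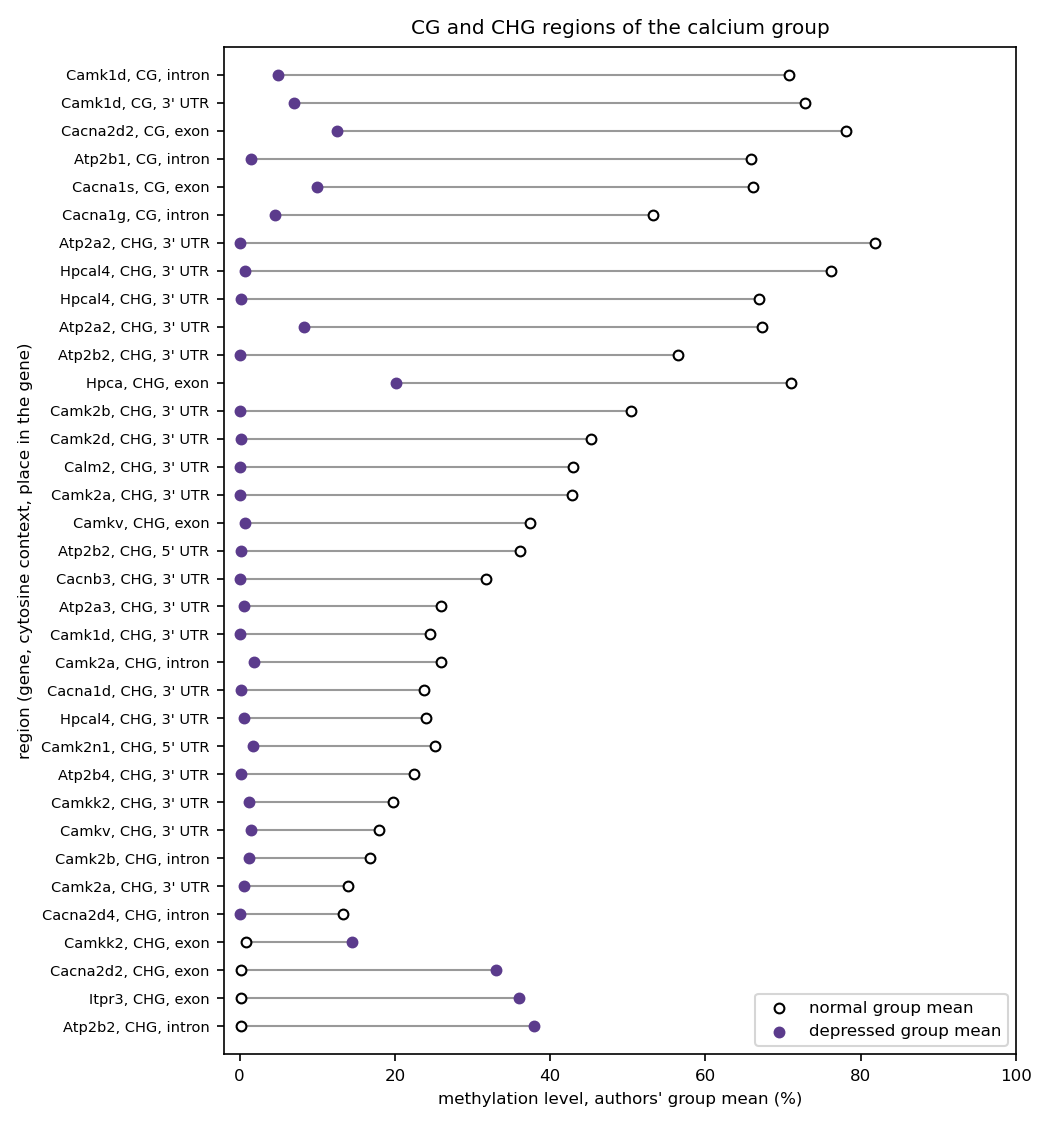
Authors' mean methylation level in percent (x axis) of the normal group (open circles) and the depressed group (filled circles) for 6 CG and 29 of the 30 CHG regions, labelled by gene, context and place in the gene. Among the 25 lower CHG regions drawn 23 have a depressed mean under 2%, and the 4 higher ones start from normal means of 0.118 to 0.798%.

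Most lower regions of CHG and CHH context were listed in 3′ UTRs. For CHH the interval of this share includes the share over all lower CHH regions. Of the 26 lower CHG regions 19 (73.1%, interval 52.2 to 88.4%) were listed in a 3′ UTR, against 47.7% of all lower CHG regions, and of the 20 lower CHH regions 12 (60.0%, interval 36.1 to 80.9%), against 43.0%. The intervals count regions of the same 3′ UTR as separate, though the 19 lie in 15 genes and the 12 in 10. They are thus no test of the group against the whole list, in CHG as in CHH. These 31 regions belong to 16 genes, with a median of 42.8% in normal embryos (9.12 to 81.8%) and 0.519% in depressed embryos (0.0697 to 8.32%). The midpoint lay within 5 kb of an end of the RefSeq gene span for 20 of 26 lower CHG and 11 of 20 lower CHH regions. Of the 28 higher CHH regions 0 lay in a 3′ UTR, near the 0.687% over all higher CHH regions. The midpoint lay within 5 kb of a gene end for 2 of the 28, and the median distance was 84.6 kb. Distances were computed for the group only, so they have no value over the whole table beside them.

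CHG and CHH regions of the group often covered the same bases. Of the 26 lower CHG regions 16 (61.5%) overlapped a CHH region, against 48.9% over the whole table, and of the 20 lower CHH regions 14 (70.0%) overlapped a CHG region, against 54.3%. The 17 overlapping pairs lay in 10 genes, and both contexts had the same direction in all 17, as in all 847 pairs of the table. The normal means of both contexts differed within a pair by a median of 6.13 points (0.00731 to 28.5) and the depressed means by 0.498 points (0.0396 to 10.7). Both contexts of a pair come from the same embryos and reads of the same place, so they are not independent.

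**Figure D3:**
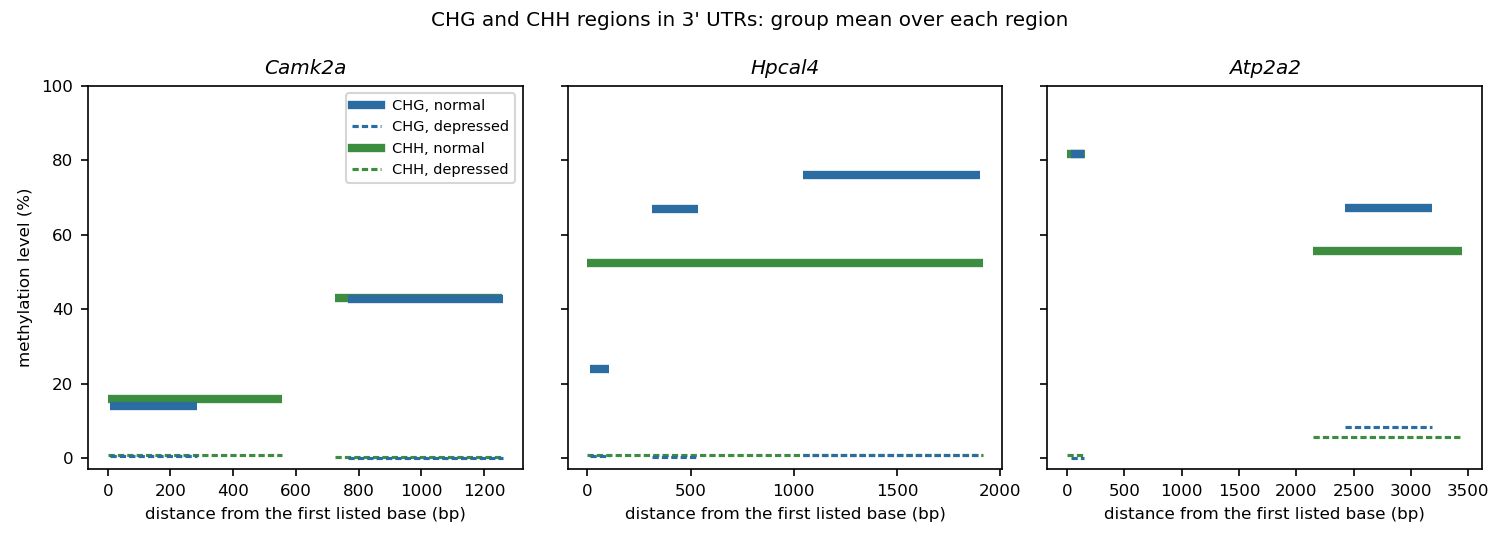
Authors' mean methylation level in percent (y axis) over each listed CHG (blue) and CHH (green) region in the 3′ UTRs of Camk2a, Hpcal4 and Atp2a2, against the distance in bp from the first listed base (x axis); thick lines are the normal group and dashed lines the depressed group. Normal means range from 13.99% in Camk2a to 81.8% in Atp2a2, while depressed means stay at or under 8.32%.

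Higher CHH regions had another form. They started from low normal means, with a median of 0.901% (0.184 to 4.71%), and reached a median of 4.77% in depressed embryos (2.68 to 24.9%), close to the medians of 0.769% and 4.76% over all 5528 higher CHH regions. Of the 28, 25 (89.3%) lay in introns without touching an exon, against 55.3% over all higher CHH regions. The other 3 (10.7%) touched an exon or UTR, against 2.23%. Both shares over all higher CHH regions include regions outside genes, which a choice by gene name cannot pick. The comparison thus cannot tell whether the group differs from other genes in its share of introns or exons. In 22 of these 25 intronic regions (88.0%) the difference was under 10 points, close to the 90.9% over all higher CHH regions in introns only. The 3 that touched an exon were those of Camk2g, Atp2b3 and Camkk2, with differences of 21.8, 18.7 and 8.54 points, against a median of 3.63 points in the 25. Repeats were listed for 9 of the 28 (32.1%, interval 15.9 to 52.4%) and for 62.6% of all higher CHH regions, inside and outside genes. Among higher CHH regions in introns only the shares were close, with 36.0% in the group and 39.4% over the whole table. RLTR31D_MM elements were named in 3 of the 28, in Cacna1c, Cacnb2 and Ryr3, and in 6.42% of all higher CHH regions. IMPB_01 elements were named in 1 of the 28, in Cacnb2, and in 13.7% of all higher CHH regions. With counts this small, neither family sets the group apart.

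**Figure D4:**
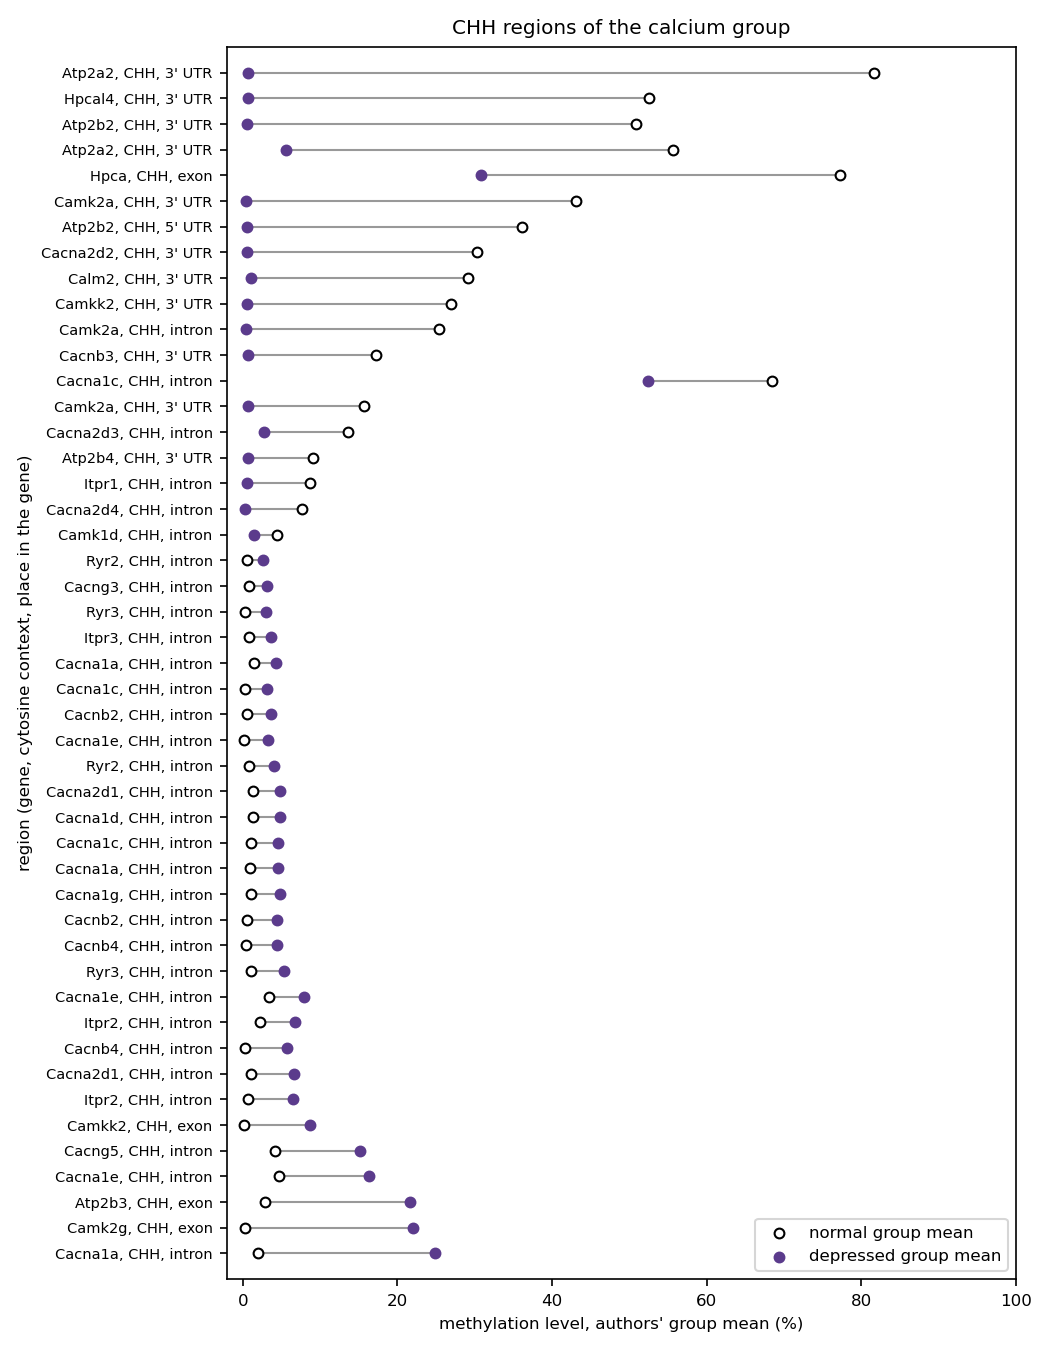
Authors' mean methylation level in percent (x axis) of the normal group (open circles) and the depressed group (filled circles) for 47 of the 48 CHH regions, labelled by gene and place in the gene and ordered by the difference. The 19 lower regions drawn, mostly in UTRs and exons at the top, differ by up to 81.0 points, and the 28 higher ones, mostly in introns, by up to 22.9 points.

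Cytosine density separated the directions too. The 28 higher CHH regions held a median of 50.4 counted CHH cytosines per 100 bp (17.8 to 69.0) and the 20 lower ones 16.6 (1.24 to 37.6). More than 40 per 100 bp were counted in 22 of the 28 higher regions and in 0 of the 20 lower ones, against 81.2% and 15.5% over the whole table. The part of depth, sequence and region calling in these counts was not tested. Within the group, the sparsest CHH region was that in the 3′ UTR of Atp2b2, with 30 counted cytosines in 2415 bp.

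**Figure D5:**
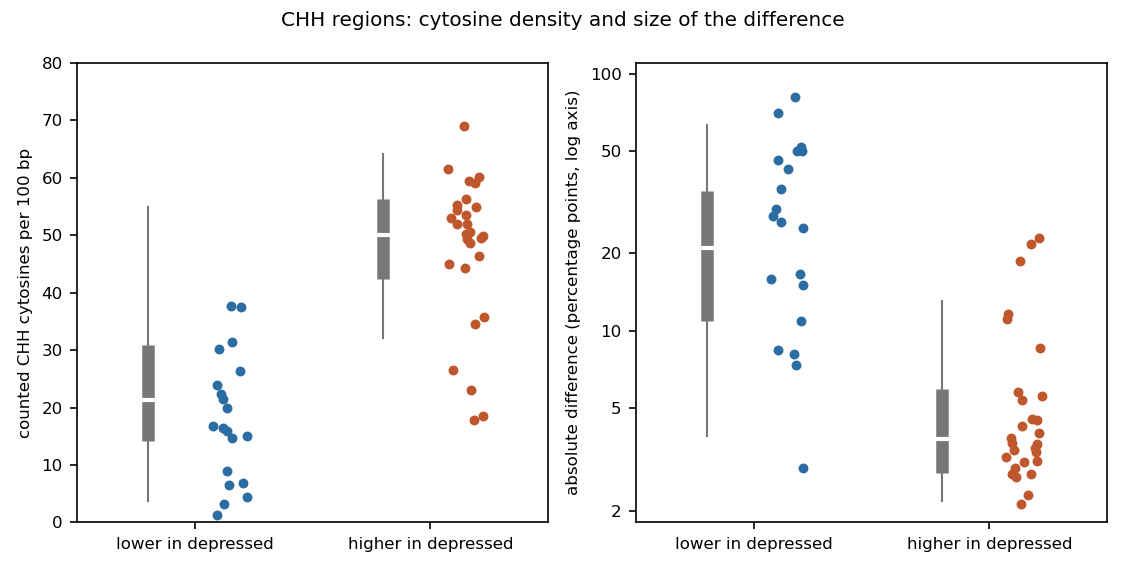
Counted CHH cytosines per 100 bp (left) and absolute difference between group means in percentage points on a log axis (right) for lower and higher CHH regions; points are the 20 and 28 regions of the calcium group, and grey marks give the 5th to 95th percentile (thin), the quartiles (thick) and the median (white) over all CHH regions. Higher regions are dense (median 50.4 per 100 bp) with small differences, lower regions sparse (median 16.6) with large ones.

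Other genes of calcium signalling, from a list of 82 exchangers, store sensors, buffers, calcineurin and adenylate cyclase genes among others, were counted in the same way. No density per Mb was computed for these 82 genes, so the part of gene length in their shares was not tested. Of these genes 32 (39.0%) had a region, against 17.5% of all protein-coding genes and 38 of 59 (64.4%) in the group itself. A lower CHG region was listed for 14 (17.1%, against 6.24% of all protein-coding genes) and a higher one for 2 (2.44% against 0.735%). A lower CHH region was listed for 9 (11.0% against 5.28%) and a higher one for 16 (19.5% against 8.85%). A CG region was listed for 6, all lower (7.32% against 2.51% with a lower CG region). By the absolute statistic, the strongest lower CHG region of these genes lay in Jph3 (39.8% in normal, 0.402% in depressed embryos). The strongest lower CHH region lay in Jph4 (31.2% against 0.719%) and the strongest higher CHH region in Ncald (2.46% against 7.78%). The genes described next are examples that were not picked by rank. Ppp3r1, the regulatory subunit of the calmodulin-dependent phosphatase calcineurin, was lower in its 3′ UTR (CHG 60.7% against 0.0946%, CHH 64.9% against 3.09%), and its inhibitor Rcan2 likewise (CHG 56.5% against 0.0814%). Stim1, the sensor of the calcium store, was lower in the 3′ UTR (CHG 30.1% against 0.322%), whereas Orai3, a store-operated channel, was higher at its 5′ UTR (CHG 2.97% against 30.9%). Caln1, a calmodulin-like gene, had 6 regions, all higher CHH regions in introns, with normal means of 0.516 to 2.64% and depressed means of 4.09 to 9.82%.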

How the data were processed

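Per the submitters' processing notes, the tools were Trim Galore 0.3.3, Bismark and SAMtools, and the genome was mm10. How regions were called, with which thresholds and coverage, and how embryos were combined is not stated in the labels or the header. The deposited table holds, per the file headers, each group's mean methylation as a fraction, their difference and a region statistic, both treated as a score. Fractions were multiplied to percent. In the table no difference was under 2.0 points, no length under 51 bp and no count under 4 cytosines.

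Entries were matched by gene name and collapsed to distinct regions by position and context with Python 3.11.15 and pandas 2.3.3. A region counts as in an exon or UTR if any of its entries says so. Gene spans, gene names and promoter windows came from RefSeq (GRCm38.p6). Exact binomial intervals (95%, scipy 1.17.1) describe the list. No test was made, since 1 mean per group leaves no spread. Members and lists were chosen with earlier results of these data known. Named were, per role, context and direction, up to 3 genes with the strongest statistic, all CG regions, genes with 4 or more regions or both directions, and 5′ regions. The counting was checked on simulated data. Alternatives were limits on difference, cytosines, statistic and distance, other ways of counting genes, and leaving out chromosomes or repeats. The values of 1 gene of the group are not reported here, though its regions are in the counts.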

Additional observations from a re-analysis of the deposited data

How the results depend on the processing

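No paired analysis was possible because the table gives 1 mean per group, and no embryo could be left out for the same reason. Of 82 recomputed values, 71 stayed within the interval of the reported share or within 1.5 times the reported count. Part of these could not change. Every member region lay 0 bp from its gene span and was listed for 1 member gene. The limit on distance and the count by pairs of gene and region thus left every value as it was. The 71 is therefore no measure of stability. The majority of CHH regions turned with the size of the difference: 58.3% were higher among all 48, but 23.8% at differences of at least 10 points and 14.3% at 20 points or more, where the share in an exon or UTR went from 37.5% to 71.4 and 85.7% and the genes from 31 to 17 and 11. With statistics at or above the median of each context, 19 genes had a CHH region and 1 gene a CG region, whose exon share was then 100%. A CG region was listed for 3 genes instead of 5 without chromosomes 9 and 10, and for 0 with at least 10 cytosines, where no CG share could be given. Leaving out 2 repeat families or chromosome X, chosen after seeing the data, moved no value beyond these limits. In CG and CHG context these 2 settings removed no region, so only the CHH values could change. Depth is unknown and limits every level.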

Other observations

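Member regions were also listed for 3 other named genes. Besides Ddx23 at Cacnb3 and Lrtm2 within Cacna2d4, the lower CHG region in the 3′ UTR of Camkv (chromosome 9, 107949510 to 107949599) is also listed at the promoter of Traip, and it lies on a CpG island shore.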
